A study of Mus musculus with 12 samples.

Results

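Midkine and pleiotrophin are small secreted growth factors, the members of one family, and Ptprz1 and Alk encode a pair of proteins described as their receptors. The genes Mdk, Ptn, Ptprz1 and Alk were taken by symbol from the deposited gene table, which gave 4 of 47480 symbols. All 4 were also among the 17236 genes with enough reads for the test. RNA sequencing was done on 12 samples of mouse trigeminal nerve, the nerve that carries sensation from the face. There were 6 plexiform neurofibroma samples, from mice of genotype Nf1 flox/flox PostnCre+, and 6 normal nerve samples, from mice of genotype Nf1 flox/flox PostnCre-. Both groups therefore carried floxed Nf1, and the Cre recombinase, named for the Postn gene, marked the tumour group alone. Nf1 encodes neurofibromin, which restrains RAS, and its loss in Schwann lineage cells gives rise to plexiform neurofibroma, a benign tumour of the nerve sheath. The labels give no age, sex, litter or drug treatment, and genotype and tumour state coincide.

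Midkine and pleiotrophin bind heparin and the sulfated sugar chains of proteoglycans. PTPRZ1 is a receptor-type tyrosine phosphatase whose extracellular part carries chondroitin sulfate chains, and binding of either ligand to it has been reported to lower its phosphatase activity. ALK is a receptor tyrosine kinase that was proposed as a receptor for both ligands, and ALKAL1 and ALKAL2 are ligands that bind it directly. In nervous tissue pleiotrophin is made by glia, Schwann cells among them, and PTPRZ1 is best known from glia and their precursors in the brain. Midkine has been described in human neurofibromas.

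In the fit over all 12 libraries, none of the 4 genes passed the test between plexiform neurofibroma and normal nerve (edgeR adjusted p under 0.05). The share of all tested genes that passed was 18.7%, with 10.0% higher and 8.63% lower in the tumours. Mdk, Ptn and Ptprz1 had higher means in plexiform neurofibroma, and Alk had a lower mean. The normal nerve library of replicate 6 was the highest of the 12 for Alk and Ptprz1, the second highest for Ptn and the third highest for Mdk. Without that library Mdk, Ptn and Ptprz1 passed the test as higher in plexiform neurofibroma, while Alk did not pass it. Each gene is therefore given below both with and without that library, a choice made after the values were seen.

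Total counts ran from 15506364 to 19745644 per library in plexiform neurofibroma and from 14160025 to 19989351 in normal nerve. Nf1 measured 69.6 to 93.1 CPM (counts scaled to one common library size) in plexiform neurofibroma and 85.6 to 173.2 CPM in normal nerve, and the tumours were lower by a log2 fold change of -0.65 (edgeR adjusted p = 0.0179). Reads were summed over the whole gene, floxed and other exons together. Schwann cell lineage markers, which define the cell type of the tumour, summed to 13020 to 22619 CPM in plexiform neurofibroma and 5032 to 14049 CPM in normal nerve. Of these markers 7 of 10 were higher (70%), against 10.0% of all tested genes. Sensory neuron markers were present in all libraries, at 9545 to 12792 CPM in plexiform neurofibroma and 7881 to 15095 CPM in normal nerve. None of 12 passed the test, against 18.7% of all tested genes.

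Normal nerve replicate 6 stood apart in markers of central nervous system glia, which are oligodendrocytes and astrocytes. The summed level of the 9 tested markers was 86.9 to 717.9 CPM in plexiform neurofibroma, 2315 CPM in normal nerve replicate 6 and 71.9 to 406.9 CPM in the other 5 normal nerves. All 9 were highest in replicate 6, and none of the 9 passed the test between the groups, against 18.7% of all tested genes. The remaining marker of the list, Opalin, which encodes an oligodendrocyte membrane protein, had too few reads for the test. Opalin had at most 43 reads in plexiform neurofibroma, 209 in normal nerve replicate 6 and at most 8 in the other normal nerves, and it was at 0 in 3 tumour and 2 normal nerve libraries. The sensory neuron sum was lowest in the same library. Among the normal nerves it was also the highest in 2 other marker sums. Endothelial and mural cell markers summed to 378.1 CPM there, 186.8 to 300.6 CPM in the other normal nerves and 213.2 to 466.4 CPM in plexiform neurofibroma. Macrophage markers summed to 115.6 CPM there and 28.2 to 95.3 CPM in the other normal nerves. Of the other libraries, plexiform neurofibroma replicate 1 had the highest skeletal muscle markers (907.7 CPM), followed by normal nerve replicate 3 (237.2 CPM). Normal nerve replicate 2 had the lowest sums of the 12 libraries for nerve fibroblast (179.5 CPM), Schwann cell lineage (5032 CPM) and macrophage (28.2 CPM) markers.

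**Figure D1:**
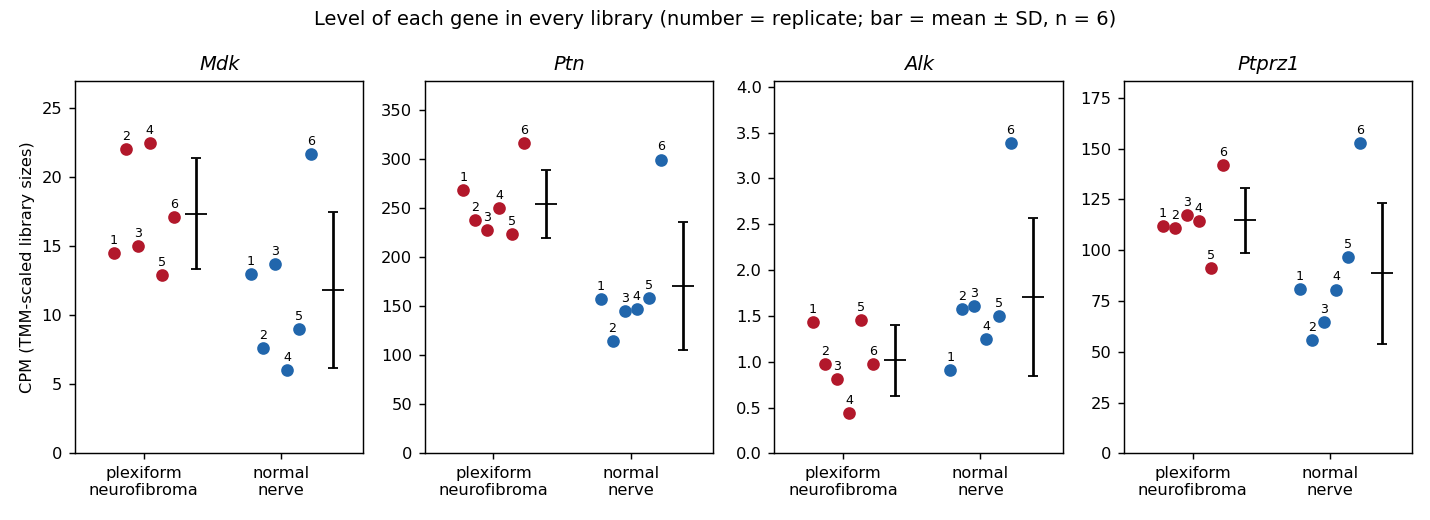
Levels of Mdk, Ptn, Alk and Ptprz1 in CPM (vertical axis, from 0) in the 6 plexiform neurofibroma (left) and 6 normal nerve (right) libraries, each point a library with its replicate number, and black bars the mean ± SD of each group. For Ptn, normal nerve replicate 6 lies at 299.9 CPM and the other 5 normal nerves lie at or below 158.6 CPM, under all 6 tumours.

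Pleiotrophin was the more abundant ligand. Ptn (ENSMUSG00000029838, chromosome 6, 36714929 to 36810220 on the minus strand, GRCm38) has 2 annotated transcripts and overlaps no other annotated gene. It measured 269.1, 238.2, 227.5, 250.7, 223.5 and 316.6 CPM in the 6 plexiform neurofibroma libraries. In the 6 normal nerve libraries it measured 157.4, 114.9, 145.6, 147.7, 158.6 and 299.9 CPM. The value of 299.9 CPM belongs to normal nerve replicate 6. Only 1 tumour exceeded that library, and the other 5 normal nerves lay below the lowest tumour. The means were 254.3 ± 34.8 CPM in plexiform neurofibroma and 170.7 ± 65.2 CPM in normal nerve (SD, n = 6 each). The fold change was 1.49 (95% confidence interval 1.11 to 2.00), with an edgeR adjusted p = 0.0563, just above the threshold. The same 12 libraries gave an adjusted p = 0.018 in DESeq2 and 0.000815 in limma-voom with sample weights, and both called Ptn higher.

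Without normal nerve replicate 6, Ptn rose in plexiform neurofibroma. It then averaged 253.3 ± 34.6 CPM in plexiform neurofibroma (SD, n = 6) and 144.3 ± 17.6 CPM in normal nerve (SD, n = 5), a 1.76-fold difference (95% confidence interval 1.5 to 2.06, edgeR adjusted p = 0.000622). In that fit 28.8% of all tested genes passed the test, and those that were higher made up 14.6% of all tested genes. All 6 tumours then lay above all 5 normal nerves in Ptn. That separation was fixed by the removal, because replicate 6 was the only normal nerve above the lowest tumour. The adjusted p rests on the same removal, made after the values were seen. Tumours lay wholly above normal nerves for 7.72% of all genes in that comparison, and 15.1% did not overlap in either direction. The library was not picked by its level of those genes, so these shares are not a like background for Ptn. With all 12 libraries the groups did not overlap for 7.39% of all genes (4.40% with the tumours higher) and for 0 of the 4 genes. Per unit of transcript length, Ptn reached 249.5 ± 33.1 TPM (length-scaled counts that sum to the same total in each library) in plexiform neurofibroma and 173.2 ± 59.6 TPM in normal nerve. These levels placed Ptn above 97% of tested genes in the tumours and above 95.1% in normal nerve.

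Mdk, at a lower level, showed a difference of like size with a wider spread. The gene (ENSMUSG00000027239, chromosome 2, 91929805 to 91932297 on the minus strand) has 4 annotated transcripts and overlaps no other annotated gene. It measured 14.6, 22.1, 15.1, 22.5, 12.9 and 17.1 CPM in plexiform neurofibroma. Normal nerve gave 13, 7.63, 13.7, 6.05, 8.98 and 21.7 CPM, with 21.7 CPM in replicate 6. The groups overlapped, as 2 tumours exceeded every normal nerve and 3 normal nerves lay below every tumour. Means were 17.4 ± 4.03 CPM in plexiform neurofibroma and 11.8 ± 5.69 CPM in normal nerve (SD, n = 6 each). The 1.47-fold difference had a 95% confidence interval of 0.971 to 2.22 and did not pass the test (edgeR adjusted p = 0.170).

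Leaving out normal nerve replicate 6 brought the Mdk means to 17.3 ± 4.01 CPM in plexiform neurofibroma (SD, n = 6) and 9.83 ± 3.33 CPM in normal nerve (SD, n = 5). The fold change was then 1.75 (95% confidence interval 1.25 to 2.46, edgeR adjusted p = 0.0179), and the groups still overlapped. Of the 31-base words in the transcripts of Mdk, 3.32% also occur in another gene, the pseudogene Mdk-ps1, which had at most 2 reads in a library.

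No difference in the balance of the ligands was detected between the tissues. The log2 ratio of Mdk to Ptn, with 0.5 CPM added to each, averaged -3.85 ± 0.35 in plexiform neurofibroma and -3.84 ± 0.40 in normal nerve (SD, n = 6 each). The difference of -0.01 was smaller than the spread between libraries (two-sided exact permutation p = 0.968; the smallest p that 6 against 6 libraries allow is 0.00216). Per length, Ptn TPM exceeded Mdk TPM in all 12 libraries, by 4.45 to 7.62 times in plexiform neurofibroma and 4.38 to 10.1 times in normal nerve.

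Ptprz1, the phosphatase receptor, is a gene with 6 annotated transcripts (ENSMUSG00000068748, chromosome 6, 22875502 to 23052916 on the plus strand) of which 3 are coding, and it overlaps no other annotated gene. In the plexiform neurofibroma libraries it measured 112.1, 111.0, 117.4, 114.3, 91.3 and 141.7 CPM. The normal nerve libraries gave 81.0, 55.9, 64.4, 80.6, 96.5 and 152.7 CPM, the last being that of replicate 6. No tumour exceeded normal nerve replicate 6, and 4 normal nerves lay below the lowest tumour. Ptprz1 averaged 114.6 ± 16.2 CPM in plexiform neurofibroma and 88.5 ± 34.5 CPM in normal nerve (SD, n = 6 each). The fold change of 1.30 (95% confidence interval 0.950 to 1.77) did not pass the test (edgeR adjusted p = 0.215).

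Without normal nerve replicate 6, Ptprz1 averaged 114.2 ± 16.1 CPM in plexiform neurofibroma (SD, n = 6) and 75.4 ± 15.8 CPM in normal nerve (SD, n = 5). It was then 1.51-fold higher in plexiform neurofibroma (95% confidence interval 1.23 to 1.86, edgeR adjusted p = 0.00737), with 1 normal nerve, replicate 5, still above the lowest tumour. Per length it reached 35.7 ± 5.14 TPM in plexiform neurofibroma and 28.5 ± 10.3 TPM in normal nerve. Ptn TPM exceeded Ptprz1 TPM in every library, by 6.11 to 7.72 times in plexiform neurofibroma and 5.18 to 7.13 times in normal nerve.

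Alk, the kinase receptor, had few reads in every library. The gene (ENSMUSG00000055471, chromosome 17, 71868972 to 72604627 on the minus strand) has 3 annotated transcripts, 1 of them coding. It overlaps 4 other annotated entries, a processed pseudogene on the plus strand and, on the minus strand, a small nuclear RNA and a pair of unconfirmed transcripts. Of the 7753 words of 31 bases in its own transcripts, 0 also occur in another gene. Only 28, 17, 16, 8, 25 and 15 reads were assigned to it in the plexiform neurofibroma libraries, which is 1.43, 0.97, 0.81, 0.44, 1.46 and 0.97 CPM. Normal nerve had 18, 31, 28, 18, 21 and 51 reads, which is 0.91, 1.58, 1.61, 1.25, 1.5 and 3.39 CPM. The highest library was again normal nerve replicate 6. Every tumour lay within the range of the normal nerves or below it, and every normal nerve lay above the lowest tumour.

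Alk averaged 1.02 ± 0.385 CPM in plexiform neurofibroma and 1.71 ± 0.863 CPM in normal nerve (SD, n = 6 each), a fold change of 0.599 (95% confidence interval 0.357 to 1.0) that did not pass the test (edgeR adjusted p = 0.142). Without normal nerve replicate 6 the fold change was 0.743 (95% confidence interval 0.479 to 1.15, edgeR adjusted p = 0.289). This interval covers both a lower and a higher level. In TPM, Alk reached 0.467 ± 0.173 in plexiform neurofibroma and 0.806 ± 0.370 in normal nerve, above only 1.23% and 3.83% of tested genes. Ptprz1 TPM exceeded Alk TPM 42.4 to 174.3 times in plexiform neurofibroma and 24.0 to 60.0 times in normal nerve.

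**Figure D2:**
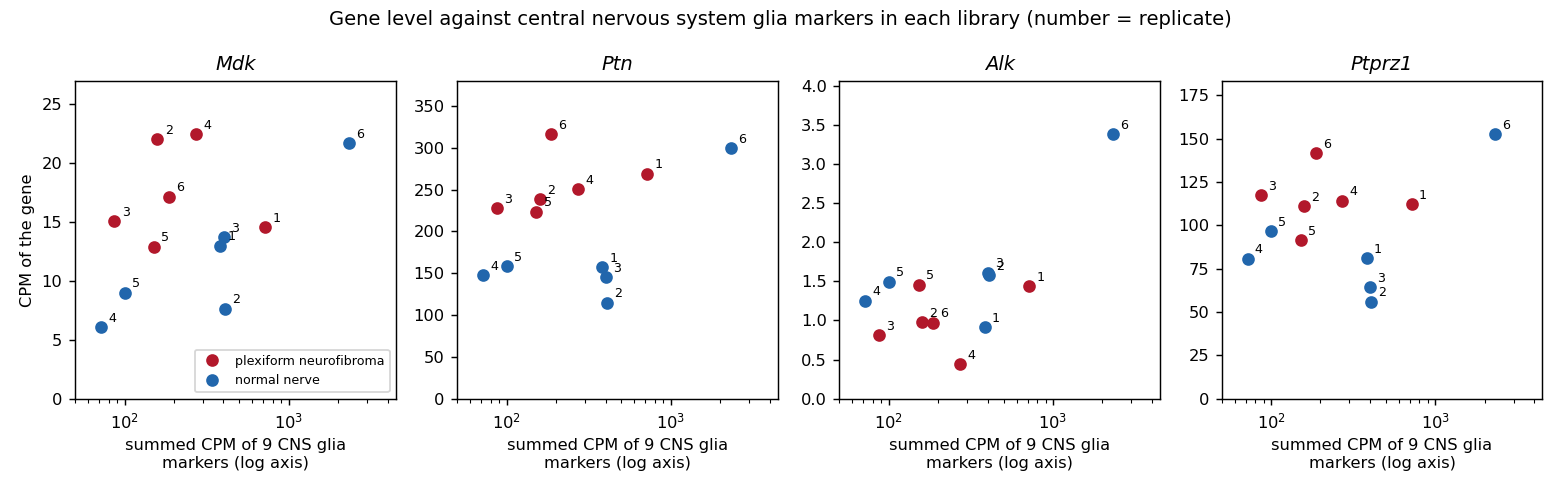
Level of each gene in CPM (vertical axis) against the summed CPM of 9 central nervous system glia markers (horizontal log axis) in each library, with tumours in red, normal nerves in blue and replicate numbers beside the points. Normal nerve replicate 6 lies alone at 2315 CPM of glia markers and is the highest normal nerve for all 4 genes.

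Among the normal nerves, the library with the most central nervous system glia marker RNA was thus also the one with the most Mdk, Ptn, Alk and Ptprz1. The other normal nerves did not all follow that order. Replicate 2, with the highest glia sum of the rest (406.9 CPM), had the lowest Ptn (114.9 CPM) and Ptprz1 (55.9 CPM). Replicate 3 (400.8 CPM) had the highest Mdk (13.7 CPM) and Alk (1.61 CPM) of the rest. In bulk tissue, more cells of a type and more RNA per cell cannot be told apart. The next highest glia marker sum was that of plexiform neurofibroma replicate 1 (717.9 CPM), in which 1 other tumour was higher in Ptn, 1 was higher in Alk, 3 were higher in Ptprz1 and 4 were higher in Mdk. Leaving out this library as well as normal nerve replicate 6 kept Ptn (log2 fold change 0.80, edgeR adjusted p = 0.0013), Mdk (0.86, 0.0213) and Ptprz1 (0.61, 0.0126) higher. With the mean log2 CPM of the glia markers as a covariate and all 12 libraries kept, the log2 fold change was 0.78 for Mdk (edgeR adjusted p = 0.0165) and 0.68 for Ptn (edgeR adjusted p = 0.00877), and both passed the test. Neither Ptprz1 nor Alk passed in that fit. With the mean log2 CPM of the sensory neuron markers as the covariate instead, the same genes passed. The log2 fold change was then 0.51 for Mdk (edgeR adjusted p = 0.0331) and 0.56 for Ptn (edgeR adjusted p = 0.00302). Normal nerve replicate 6 had the highest glia score and the lowest sensory neuron score, so these fits and its removal are not separate checks. Neither gene passed with a skeletal muscle score (edgeR adjusted p = 0.198 for Mdk and 0.0694 for Ptn) or a sex-linked score (0.17 and 0.0551) as the covariate.

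Other cell markers differed between the groups together with these genes. The summed level of 9 nerve fibroblast markers was 1404 to 3119 CPM in plexiform neurofibroma and 179.5 to 1207 CPM in normal nerve. The value of 179.5 CPM was that of normal nerve replicate 2, and the other normal nerves were at 875.1 CPM or above. Of the 9 markers 6 were higher (66.7%), against 10.0% of all tested genes. Macrophage markers summed to 85.7 to 157.0 CPM in plexiform neurofibroma and 28.2 to 115.6 CPM in normal nerve, with 2 of 6 higher (33.3%). None of 8 markers of non-myelinating and repair Schwann cells passed the test, against 18.7% of all tested genes. Of these 8 markers 4 were highest in normal nerve replicate 6. Olig1, 1 of them, was at 81.1 CPM there and at most 8.29 CPM in the other normal nerves. No Schwann, fibroblast or macrophage marker was at 0 in any library. The part of these cells in the levels of the 4 genes was not tested.

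**Figure D3:**
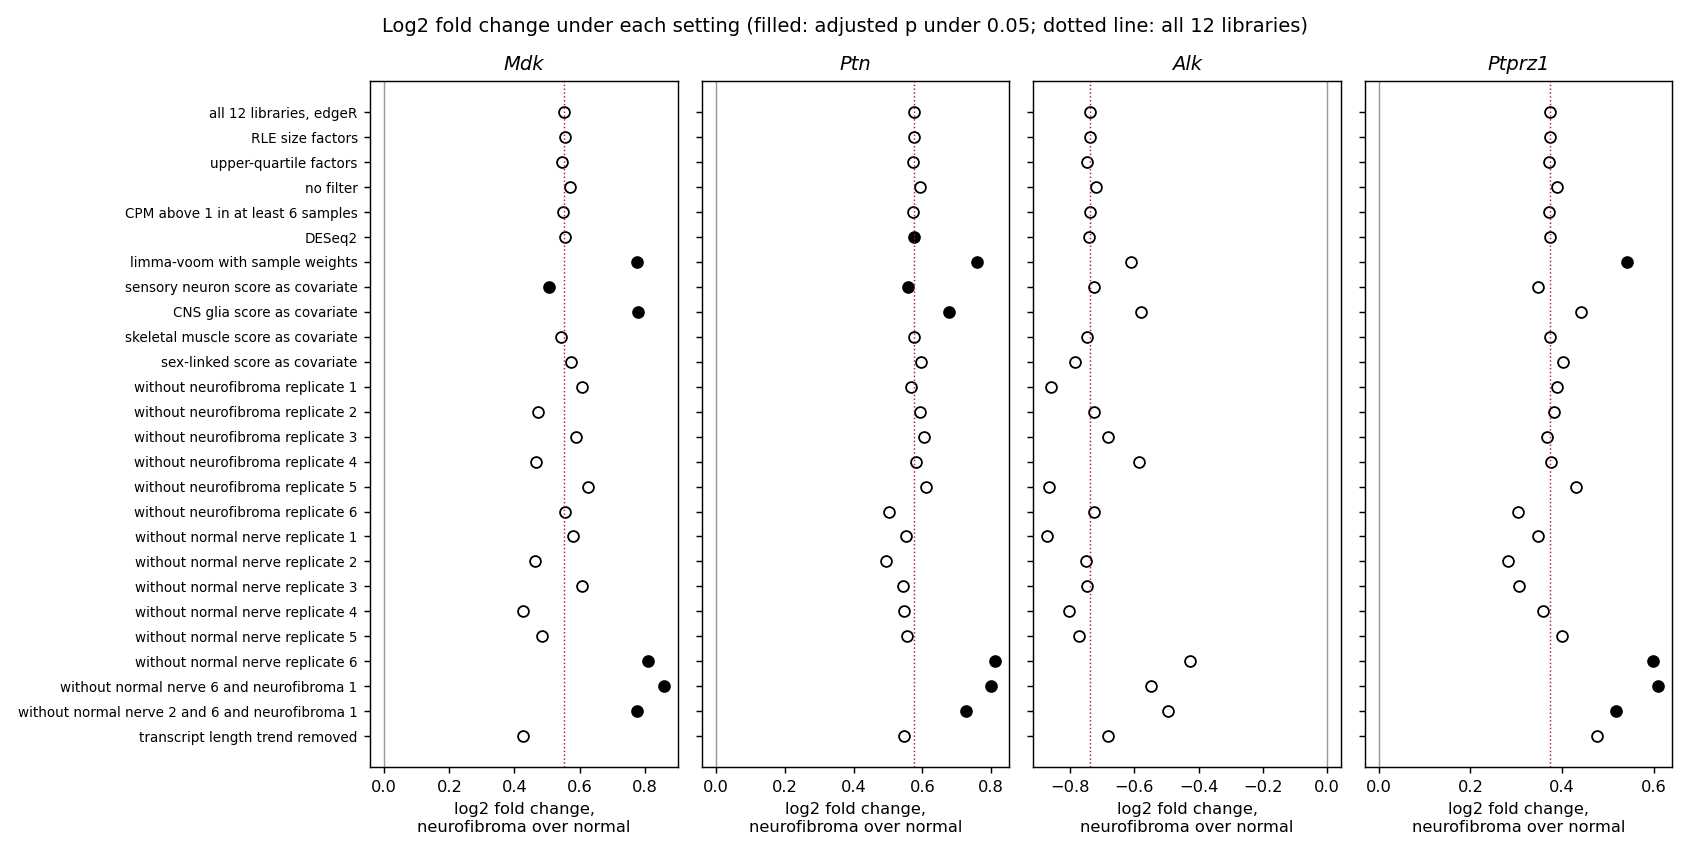
Log2 fold change of each gene, plexiform neurofibroma over normal nerve (horizontal axis), under each processing setting (rows), where filled points passed an adjusted p of 0.05 and the dotted line marks the value from all 12 libraries. Mdk, Ptn and Ptprz1 lie above 0 and Alk below 0 in each setting drawn, and the only single library whose removal gives filled points is normal nerve replicate 6.

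For each gene, the sign was the same in all 25 alternative settings tried. Ptn passed the test in 7 of these 25 settings, Mdk in 6, Ptprz1 in 4 and Alk in 0. These settings are not independent, so the counts do not measure support. Several of the passing fits left out normal nerve replicate 6, alone or with other libraries. For Ptn and Mdk, others used a covariate score in which that library was the extreme one. When single libraries were left out, the log2 fold change of Ptn ran from 0.50 to 0.81, that of Mdk from 0.43 to 0.81, that of Ptprz1 from 0.28 to 0.60 and that of Alk from -0.87 to -0.43. The lowest values of Ptn and Ptprz1 came without normal nerve replicate 2, and the lowest of Mdk without normal nerve replicate 4. For these 3 genes the highest values came without normal nerve replicate 6.

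The genes whose profiles over the 12 libraries lay closest to each of the 4 were found by the root mean square (RMS) difference of log2 CPM, each gene centred on its own mean. Ptn and Ptprz1 were close to each other. Among 11624 candidate genes, the profile nearest to that of Ptprz1 was that of Ptn, with an RMS difference of 0.160, against 0.466 for the median gene. Ptprz1 was the third nearest to Ptn, after Asrgl1 (0.128), which encodes an asparaginase, and Rab31 (0.134), which encodes a small GTPase of vesicle transport. Without normal nerve replicate 6 the difference between Ptn and Ptprz1 was 0.165, but Ptn was then only the 14th nearest to Ptprz1, and Ptprz1 the 20th nearest to Ptn.

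Mdk followed other genes. Its nearest profiles were those of Efemp2 (0.157), which encodes a fibulin of elastic fibres, of Tgfb1 (0.162), which encodes a transforming growth factor, and of Mov10 (0.174), which encodes an RNA helicase. Ptn was the 266th nearest to Mdk. After Ptn, the nearest profiles to Ptprz1 were those of Mmd2 (0.173) and Asrgl1 (0.182). Alk lay nearest to Ncan (0.251), which encodes neurocan, a chondroitin sulfate proteoglycan of the nervous system, then to Flrt2 (0.290), which encodes an adhesion protein, and to Phactr3 (0.293), which encodes a phosphatase and actin regulator. Normal nerve replicate 6 was far above the other normal nerves in Asrgl1, Rab31, Ncan and Flrt2, so these likenesses share that library with the genes they were measured for.

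The promoters of Ptn and Ptprz1 are shown because the profiles of this receptor and ligand lay close together. Each runs from 250 bases before to 50 bases after the start of the gene in RefSeq on GRCm38.p6, which also holds an entry for Alk. The Ptn window lies at chr6:36810130-36810429 on the minus strand and the Ptprz1 window at chr6:22875252-22875551 on the plus strand. For Ptn the RefSeq start lies inside the gene span given above, which comes from the GENCODE annotation. Motif positions are counted from the RefSeq start. Capitals mark CCAAT in Ptn and GGGCGG, the GC box, in Ptprz1, where its second copy is read on the minus strand as the letters CCGCCC.
Ptn: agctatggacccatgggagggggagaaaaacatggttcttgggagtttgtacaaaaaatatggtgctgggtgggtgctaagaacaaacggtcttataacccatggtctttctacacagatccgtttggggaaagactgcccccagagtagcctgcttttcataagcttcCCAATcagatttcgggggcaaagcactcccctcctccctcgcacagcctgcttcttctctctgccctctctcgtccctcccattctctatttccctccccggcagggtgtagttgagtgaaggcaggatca
Ptprz1: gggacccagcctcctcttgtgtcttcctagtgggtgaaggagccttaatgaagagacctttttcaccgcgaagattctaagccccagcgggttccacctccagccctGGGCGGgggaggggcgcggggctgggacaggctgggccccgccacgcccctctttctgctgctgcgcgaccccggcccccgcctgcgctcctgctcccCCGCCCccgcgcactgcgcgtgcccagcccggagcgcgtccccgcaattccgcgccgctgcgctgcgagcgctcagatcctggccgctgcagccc
The sequences differ in composition. That of Ptprz1 has 71.7% G and C and 29 CG pairs, and that of Ptn has 52% and 6, against medians of 52.7% and 7 over 32851 RefSeq promoters of this length. Alk has 64% and 28.

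The motifs searched on both strands were the GC box GGGCGG, the CCAAT box, the TATA box TATAAA, the SOX core in the spellings ACAAAG and also ACAATG, the AP-1 site TGANTCA and the ETS core CCGGAA. Ptn and Ptprz1 share none of them in these windows. CCAAT lies 81 bases before the RefSeq start of Ptn, and 37.4% of all promoters hold it. GGGCGG lies 143 and 45 bases before the start of Ptprz1, and 35.7% of all promoters hold it. Alk has 1 GGGCGG and 1 CCGGAA, and 14.9% of all promoters hold CCGGAA. The other words occur in none of the 3 windows, and 13.6% of all promoters hold TATAAA, 18.7% hold ACAAAG, 12.6% hold ACAATG and 7.81% hold TGANTCA. Matches of such short words are a description of the letters only.

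Other proteins reported to bind midkine or pleiotrophin were examined as a list of 17, made of syndecans, integrins, proteoglycans and further reported receptors. The list also holds Ptprg, as a relative of Ptprz1. All 17 were tested, 7 were higher and 1 was lower in plexiform neurofibroma, and 9 did not pass. The median log2 fold change of the list was 0.33, against -0.02 for all genes, and 47.1% of its genes passed, against 18.7% of all. The gene and marker lists used here were chosen with earlier results of these data known. Their shares beside those of all genes are therefore a description and not a test of an excess. The count of higher members was 3 when plexiform neurofibroma replicate 2, 4 or 6 was left out, 4 when normal nerve replicate 3 was, and 9 when normal nerve replicate 6 was. The number of all genes called higher moved in the same direction. It was 1730 with all 12 libraries, 1220, 1092 and 1222 without plexiform neurofibroma replicates 2, 4 and 6, and 2544 without normal nerve replicate 6.

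Sdc4, which encodes the cell surface heparan sulfate proteoglycan syndecan 4, averaged 114.4 ± 26.8 CPM in plexiform neurofibroma and 49.0 ± 17.1 CPM in normal nerve (SD, n = 6 each), a 2.33-fold rise without overlap of the groups (edgeR adjusted p = 0.00576). Vcan, which encodes the chondroitin sulfate proteoglycan versican, averaged 25.2 ± 7.99 CPM in plexiform neurofibroma and 9.33 ± 3.68 CPM in normal nerve, a 2.70-fold rise (edgeR adjusted p = 0.00638). The syndecan gene Sdc1 rose 1.53-fold (edgeR adjusted p = 0.0186). These 3 genes passed the test whichever single library was left out.

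Itgb3, which encodes an integrin subunit, rose 1.61-fold (edgeR adjusted p = 0.0289), but it did not pass when plexiform neurofibroma replicate 2, 4 or 6 or normal nerve replicate 4 was left out (adjusted p up to 0.0639). The remaining higher members, named after their values were seen, were the integrin genes Itgav (1.58-fold) and Itgb1 (1.23-fold) and the syndecan gene Sdc3 (1.26-fold). Ptprg, the receptor phosphatase most like Ptprz1, went the other way. It averaged 58.3 ± 5.24 CPM in plexiform neurofibroma and 72.3 ± 4.71 CPM in normal nerve (SD, n = 6 each), a fold change of 0.806 without overlap of the groups (edgeR adjusted p = 0.0117). With a transcript length trend removed from each library, the log2 fold change of Ptprg was -0.18 and no longer passed (edgeR adjusted p = 0.109).

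Cspg5, which encodes a brain chondroitin sulfate proteoglycan, moved more than any other gene of this list when normal nerve replicate 6 was left out. With all 12 libraries its fold change was 1.08 (edgeR adjusted p = 0.925). Without that library it averaged 21.8 ± 7.60 CPM in plexiform neurofibroma (SD, n = 6) and 7.43 ± 1.56 CPM in normal nerve (SD, n = 5), a 2.92-fold difference (edgeR adjusted p = 0.00101). This gene was named after its values were seen.

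**Figure D4:**
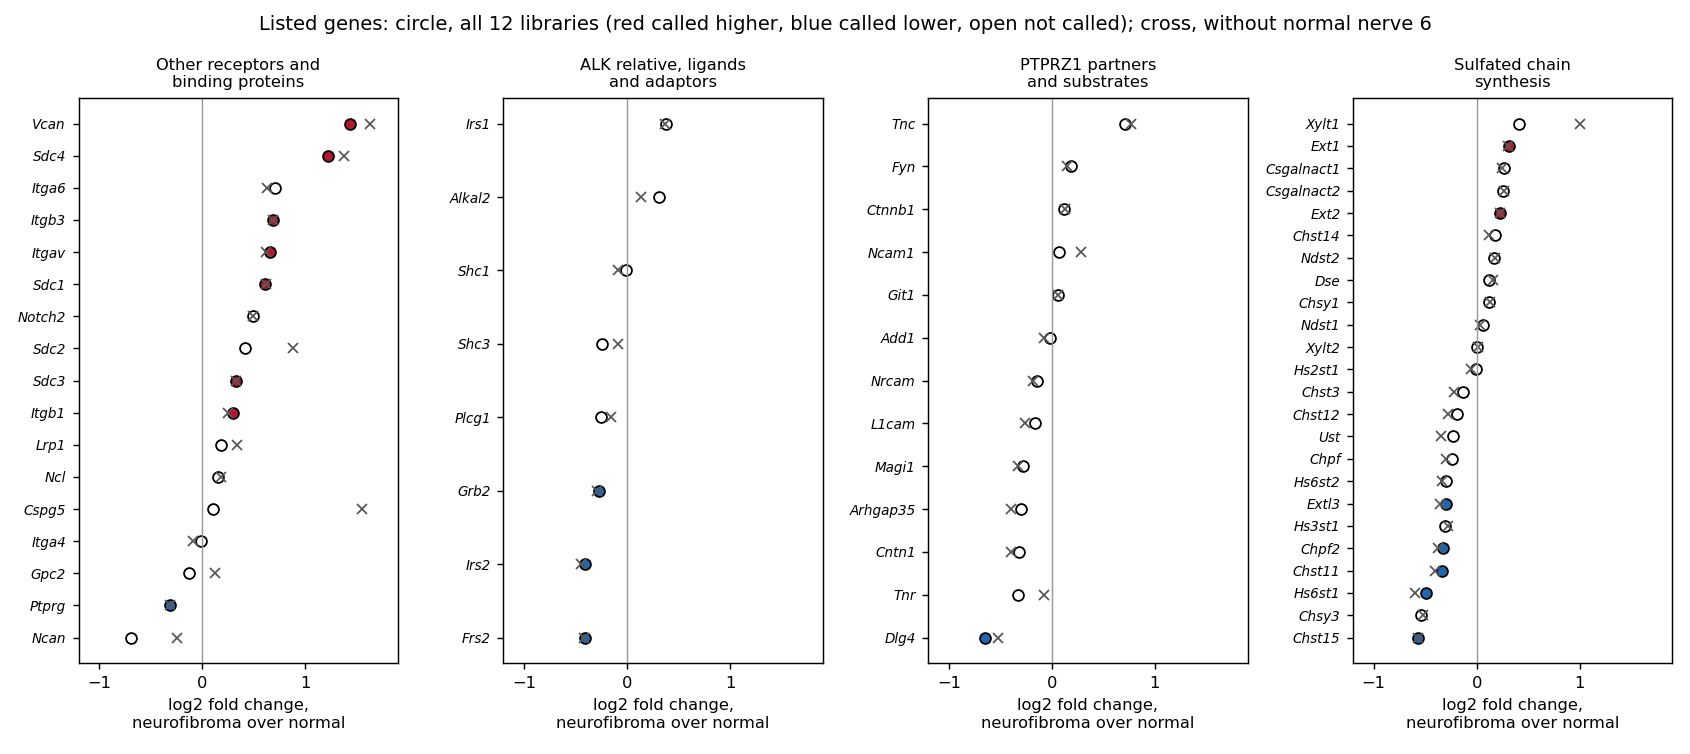
Log2 fold change (plexiform neurofibroma over normal nerve) of each tested gene in the 4 lists (columns), as circles with all 12 libraries, filled red (higher) or blue (lower) where the adjusted p was under 0.05, and as crosses without normal nerve replicate 6. In the list of other receptors and binding proteins 7 genes are higher and 1 is lower, and in the list around ALK 3 are lower and none is higher, with all 12 libraries.

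The list around ALK held its relative Ltk, the ligands Alkal1 and Alkal2, and 7 adaptors and substrates that carry signals from receptor tyrosine kinases. Alkal1, in the table under its older symbol Fam150a, had 0 reads in all 12 libraries, which at a limit of 3 reads allows up to 0.15 to 0.212 CPM, depending on the library. Ltk had 4 to 15 reads in plexiform neurofibroma, 2 to 7 in normal nerve replicates 1 to 5 and 66 in normal nerve replicate 6, too few for the test. Alkal2, in the table as Fam150b, averaged 2.37 ± 0.565 CPM in plexiform neurofibroma and 1.91 ± 1.05 CPM in normal nerve (SD, n = 6 each), a fold change of 1.24 that did not pass (edgeR adjusted p = 0.536). RNA for ALK and for its direct ligands was at or below a few CPM in both tissues.

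Of the 8 tested genes in that list, 0 were higher and 3 were lower in plexiform neurofibroma, and the median log2 fold change was -0.25. The share that passed was 37.5%, against 18.7% of all genes (8.63% of all genes were lower). Irs2, which encodes an insulin receptor substrate, had a fold change of 0.756 (edgeR adjusted p = 0.0129). Grb2, which encodes the adaptor that links receptor tyrosine kinases to RAS activation, had a fold change of 0.828 (edgeR adjusted p = 0.0156). Frs2, which encodes an adaptor of fibroblast growth factor receptors and ALK, had a fold change of 0.753 (edgeR adjusted p = 0.0264) and did not pass without plexiform neurofibroma replicate 3, 4, 5 or 6 or normal nerve replicate 5 (adjusted p up to 0.0584). All 3 were also lower without normal nerve replicate 6.

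Among 13 binding partners and substrates of PTPRZ1, 0 were higher and 1 was lower, or 7.69%, against 18.7% of all genes. The gene was Dlg4, which encodes the synaptic scaffold PSD-95, and it averaged 93.3 ± 14.1 CPM in plexiform neurofibroma and 146.2 ± 29.3 CPM in normal nerve (SD, n = 6 each). Its fold change was 0.638 without overlap of the groups (edgeR adjusted p = 0.0066). The adhesion partners gave no call with all 12 libraries. Cntn1, which encodes contactin 1, had a fold change of 0.802 (edgeR adjusted p = 0.145), and Tnc, which encodes tenascin C, one of 1.64 (edgeR adjusted p = 0.126); both were named after their values were seen. Without normal nerve replicate 6 the list had 1 higher and 4 lower genes, in a fit where 28.8% of all genes passed. It had 2 lower genes without plexiform neurofibroma replicate 5. Over all tested genes, 1397 were lower in that last fit, against 1488 with all 12 libraries.

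Enzymes that build the chondroitin and heparan sulfate chains, to which both ligands bind, gave 2 higher and 5 lower genes of 24, with a median log2 fold change of -0.07. The share that passed, 29.2%, stands against 18.7% of all genes. Ext2 and Ext1, which encode the pair of polymerases that extend heparan sulfate, rose 1.17-fold (edgeR adjusted p = 0.0121) and 1.24-fold (edgeR adjusted p = 0.0212). Ext2 averaged 43.8 ± 1.78 CPM in plexiform neurofibroma and 37.6 ± 1.42 CPM in normal nerve (SD, n = 6 each), and the groups did not overlap. Without plexiform neurofibroma replicate 4, Ext1 had an edgeR adjusted p = 0.0507.

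The lower genes were Chpf2, a chondroitin polymerising factor, at a fold change of 0.797 (edgeR adjusted p = 0.0230), and the sulfotransferase genes Hs6st1 at 0.711 (edgeR adjusted p = 0.0264) and Chst15 at 0.674 (edgeR adjusted p = 0.0279). Hs6st1 acts on heparan sulfate and Chst15 on chondroitin sulfate. The other lower members, named after their values were seen, were the chondroitin sulfotransferase gene Chst11 (0.792) and Extl3 (0.810), which acts at the start of heparan sulfate chains. Chpf2, Hs6st1 and Chst15 each lost the call when any 1 of 4 or 5 single libraries was left out, with adjusted p up to 0.0639. The number called in this list was 1 when plexiform neurofibroma replicate 4 was left out, 3 when plexiform neurofibroma replicate 2 or 6 was, 2 to 4 when normal nerve replicate 3, 4 or 5 was, and 10 when normal nerve replicate 6 was. Over all genes, 3218 were called with all 12 libraries and 5031 without normal nerve replicate 6. Without plexiform neurofibroma replicates 4, 2 and 6 in turn, 1893, 2162 and 2156 were called.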

How the data were processed

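The authors deposited expected counts (estimated counts of reads per gene), not normalized, for 47480 gene symbols in each of the 12 samples. The tools named are STAR 2.4.2a, Salmon 0.60, FastQC and DESeq2, with build mm10, per the submitters' processing notes, which give them no role. Per the labels' protocols, polyA RNA was sequenced, with a stranded mRNA kit and a TruSeq kit both named. Whether counting used strand is not given in the sources used here. In each library 84.1% to 86.5% of the values were whole within 0.001.

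Counts were rounded. Genes were filtered with filterByExpr and tested in edgeR 4.0.16 (quasi-likelihood F test, TMM factors, robust fit, R 4.3.3), with Benjamini-Hochberg adjustment over 17236 genes and a threshold of 0.05. CPM uses TMM-scaled library sizes. Fold changes divide plexiform neurofibroma by normal nerve and have 95% intervals from the fit. TPM used the longest GENCODE vM21 transcript (GRCm38, the assembly of mm10), known for 45189 symbols. The fit was tested on simulated data. The labels do not state that the samples are separate animals, so p-values measure the spread between these samples, which may be partly technical. The female transcript Xist ran from 0.286 to 398.4 CPM in plexiform neurofibroma and from 0.203 to 457.7 CPM in normal nerve. The Y-linked Ddx3y ran from 0 to 163.0 CPM and from 0 to 94.3 CPM. Each group thus held samples of both sexes, but the number of animals is not known.

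Genes were named by rule: the 4 genes, Nf1 and Postn; the up to 5 called genes of lowest p-value per list, or 1 if there was no call; and the 3 nearest profiles per gene, leaving out placeholder symbols and mean CPM under 5. Postn, which encodes periostin, averaged 140.5 ± 53.6 CPM in plexiform neurofibroma and 22.1 ± 6.44 CPM in normal nerve (SD, n = 6 each, edgeR adjusted p = 0.00083). The genes, lists and markers were chosen with earlier results of these data known. Alternatives were DESeq2 1.42.0, limma-voom (limma 3.58.1), upper-quartile and RLE factors, a CPM filter (above 1 in 6 or more samples) or none, 4 marker scores as covariates, pseudocounts of the ratio, and each library left out. Leaving out sets of libraries and removing a length trend (lowess, span 0.3) were chosen after seeing the data.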

Additional observations from a re-analysis of the deposited data

Results flagged for a closer look

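Normal nerve replicate 6 lay far from the other 5 normal nerves in 8 of the 29 genes examined for a single distant sample in that group. Chance flags about 1 in 20 groups, but Asrgl1, Rab31, Ncan and Flrt2 were chosen for profiles near those of Ptn or Alk over the same libraries, so that rate does not apply to this pattern. It measured 299.9 CPM of Ptn, against 114.9 to 158.6 CPM in the others, and 3.386 CPM of Alk, against 0.9134 to 1.612 CPM. It was also the highest in Dlg4 (204.4 CPM, against 125.2 to 140.2), in Asrgl1 (142.3 CPM, against 48.67 to 65.66), in Rab31 (63.33 CPM, against 25.94 to 35.77), in Ncan (54.24 CPM, against 14 to 18.97) and in Flrt2 (38.31 CPM, against 15.68 to 24.12). It was the lowest in Hs6st1, at 38.97 CPM, against 63.93 to 78.76 CPM in the other normal nerves. All 8 values belong to this library, whose central nervous system glia markers summed to 2315 CPM, against 71.9 to 406.9 CPM in the other normal nerves. Their part in these values was not tested.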

How the results depend on the processing

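Alk did not pass the test in any of the 25 settings, with log2 fold changes of -0.8717 to -0.4279. Mdk passed with limma-voom (0.7761), with the sensory neuron score (0.5069) or the central nervous system glia score (0.7795) as a covariate, without normal nerve 6 and plexiform neurofibroma 1 (0.859) and without these and normal nerve 2 (0.7764); Ptn passed in the same fits (0.759, 0.5582, 0.6765, 0.7995 and 0.726) and in DESeq2 (0.5765); Ptprz1 passed with limma-voom (0.5418) and without those libraries (0.6102 and 0.5174). Leaving out 1 library gave 0.4272 to 0.811 for Mdk, 0.4952 to 0.8121 for Ptn and 0.2814 to 0.5991 for Ptprz1, each highest without normal nerve 6. The cause was not tested. The Mdk to Ptn log2 ratio differed by 0.01176 with a pseudocount of 0.1 CPM, and by -0.1401 to 0.08736 with single libraries left out, its sign changing in 7 settings (0.05306, 0.03262 and 0.05393 without plexiform neurofibroma 1, 5 and 6; 0.0501, 0.08736 and 0.008401 without normal nerve 1, 3 and 6). Genes called numbered 5565 with limma-voom (2864 higher, 2701 lower) and 1893 to 5031 with 1 library left out (lowest without plexiform neurofibroma 4, 2098 without normal nerve 5, highest without normal nerve 6). Other receptors and binding proteins called were 5 without a filter and 4 to 10 with 1 library left out. For the PTPRZ1 list they were 2 in DESeq2, 4 in limma-voom, 4 without normal nerve 6 and plexiform neurofibroma 1, 3 without those and normal nerve 2, and 1 to 5 with 1 library left out. For chain synthesis they were 4 without a filter, 11 without normal nerve 6 and plexiform neurofibroma 1, 4 with the length trend removed, and 1 to 10 with 1 library left out.

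Grb2 and Chpf2 did not pass without a filter (edgeR adjusted p = 0.0556 and 0.0532), and Frs2, Chpf2 and Chst15 did not pass with the length trend removed (0.0555, 0.0581 and 0.0501). Sdc1 and Chst15 did not pass without normal nerve 2 and 6 and plexiform neurofibroma 1 (0.0536 and 0.0513). No paired analysis was possible because the labels give no replicate numbers; those used here only name the samples. Alk rests on 8 to 51 reads per library, and how much of its spread is counting error was not tested.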
